A study of Homo sapiens with 4 samples.

Results

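Sorting nexins are proteins that bind endosome membranes through a PX domain and help to sort cargo there, and the retromer is the coat with which several of them work. The set described here holds 35 genes. It took every gene whose annotated symbol is SNX followed by a number, of which there were 30, the 4 retromer subunit genes VPS26A, VPS26B, VPS29 and VPS35, and SNORD17, a small nucleolar RNA gene that lies inside SNX5. They stand among 18244 genes with a probe set of their own. SNX5 is shown with all its probe sets and each other gene with its brightest.

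The cells were Kelly neuroblastoma cells, an established human line, in a form made resistant to the ALK kinase inhibitor TAE684. All 4 samples were resistant cells grown with 1 µM TAE684, infected for 24 h in polybrene and selected with puromycin for 48 h, and differed in the hairpin alone. The first group, shBORIS, carried a hairpin against BORIS, the product of CTCFL. The second, shLUC, carried a hairpin against luciferase and was the control, and each group had 2 biological duplicates on 1 PrimeView array each. The labels name a single hairpin against BORIS, so effects of lower BORIS and of that hairpin on other transcripts cannot be told apart.

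Internalised membrane proteins reach early endosomes, from which they go to lysosomes for breakdown or are sorted back to the plasma membrane or the Golgi. The retromer is a trimer of VPS35, VPS29 and either VPS26A or VPS26B that selects cargo for return. The SNX-BAR proteins bend the membrane into the tubules that carry it: SNX1 or SNX2 pairs with SNX5 or SNX6, and SNX5 and SNX6 themselves bind cargo such as the mannose 6-phosphate receptor IGF2R. Other sorting nexins add a FERM, PDZ, SH3 or RGS domain to the PX domain and link it to receptors, actin or lipid contacts.

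Values are deposited probe set intensities on a linear scale, and a difference is shBORIS minus shLUC on the scale of log2(intensity + 16), which understates changes of dim genes. The median of the 10946 genes tested differed by 0.48 on the deposited scale, so each difference is given on the deposited scale and on a centred scale, which sets every array's median gene to 0. A gene is called higher, risen, lower or fallen when its limma p, adjusted by the Benjamini-Hochberg method over all genes tested, is under 0.05. In these bulk samples fewer cells of a type and less RNA per cell cannot be told apart. CTCFL read 701 and 737 with shBORIS against 3563 and 3376 with shLUC, a difference of -2.72 after centring (limma adjusted p = 9.31e-10). Replicates correlated across genes at 0.9968 for shBORIS and 0.9963 for shLUC. All 13 measured markers of adrenergic neuroblastoma lay above the filter on low values, against 2 of 6 Schwann and glial, 4 of 10 fibroblast and endothelial and 1 of 5 immune markers; none of these was at 0. The summed intensities of the last 3 lists were 506 and 571 against 633 and 573 for Schwann and glial markers, 1095 and 1174 against 1311 and 1328 for fibroblast and endothelial markers, and 180 and 165 against 174 and 160.0 for immune markers, shBORIS first. Their part in the results was not tested.

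Of the 35 genes, 31 passed the filter and were tested, while SNX20, SNX29, SNX31 and SNX32 did not. As deposited, 26 of the 31 were higher and 0 lower, where 77.2% of all genes tested were higher and 4.6% lower. At an unadjusted limma p under 0.05 the number lower was also 0. Relative to the median gene, 13 of 31 were higher (41.9%) and 6 lower (19.4%), against 30.2% and 28.9% of all genes. The median of the 31 was 0.61 as deposited, beside 0.48 for all genes, and 0.14 after centring. After quantile normalization 11 were higher and 6 lower, against 26.7% and 28.4% of all genes. With arrays centred on the ERCC spike-ins, RNAs added to the total RNA, 26 were higher and 0 lower, against 76.0% and 4.6%. The bright spike-in probe sets were already nearly level as deposited, with geometric means of 667 to 679. This centring therefore moved the values little and is no separate check of the deposited counts. With each gene taken as the mean of its probe sets, 15 were higher and 8 lower after centring, against 31.3% and 33.5%. Without SNORD17, whose case is given with its values, the counts over 30 genes were 25 and 0 as deposited and 12 and 6 after centring. As deposited, both shBORIS arrays lay above both shLUC arrays for 27 of the 31 and below for 0, against 83.8% and 6.6% of all genes tested; after centring 18 lay above and 10 below, against 40.3% and 39.1%. By the probe sets that represent them, SNX5 and SNORD17 stood far from the other 29 tested genes, which lay between -0.57 and 0.50 on the centred scale.

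**Figure D1:**
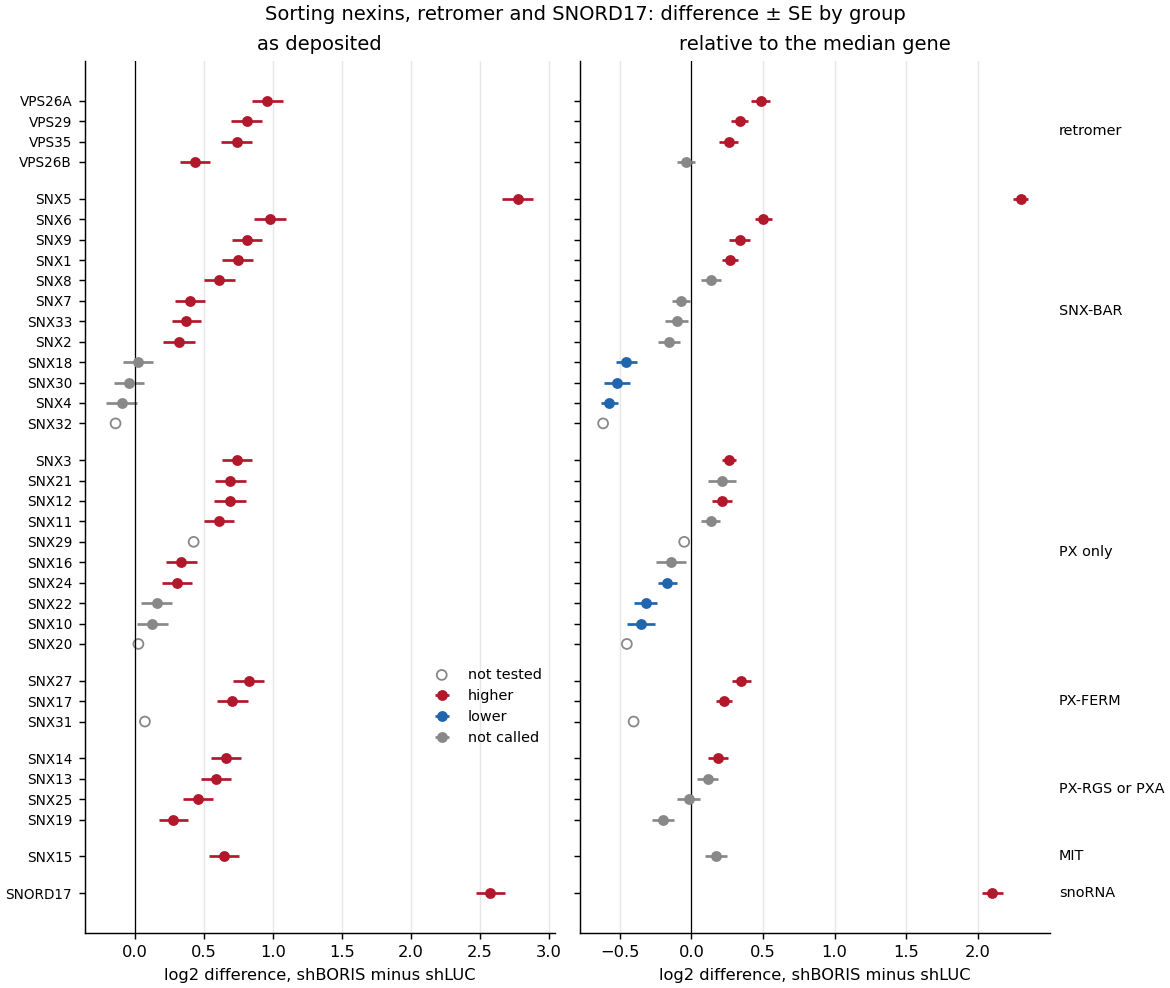
Log2 difference, shBORIS minus shLUC, of each of the 35 genes, as deposited on the left and relative to the median gene on the right, ordered by domain group. Points are limma estimates from 2 arrays per group with standard errors, coloured by call, and open circles are the 4 untested genes; SNX5 and SNORD17 lie above 2 on both scales, and the lowest tested gene on the right is SNX4 at -0.57.

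SNX5, which makes the cargo-binding member of a SNX-BAR pair, rose on every one of its 4 probe sets, by amounts that differed widely. Probe set 11763188_a_at, which represents the gene, read 1529 and 1594 with shBORIS and 221 and 208 with shLUC. The arrays of the groups were far apart, at means of 1562 ± 46.3 (SD, n = 2) and 215 ± 9.10 (SD, n = 2). Its difference was 2.77 as deposited, a 6.84-fold rise, and 2.30 after centring (SE 0.05; limma adjusted p = 6.19e-09), a 4.91-fold rise. This probe set represents SNX5 as the brightest on average over the 4 arrays, which it is through the shBORIS arrays and not on the shLUC arrays, so its choice is not independent of the difference.

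The other probe sets of SNX5 gave smaller rises. Probe set 11737753_s_at read 757 and 842 with shBORIS and 351 and 301 with shLUC, which is 2.39-fold as deposited. Probe set 11742728_x_at read 686 and 693 against 352 and 305, a 2.05-fold rise. The dimmest, 11761125_at, read 87.1 and 92.3 against 59.2 and 46.0, or 1.55-fold. On none of the 4 SNX5 probe sets did the groups overlap, where shBORIS lay above shLUC without overlap for 83.8% of all genes tested as deposited. All 4 were called higher as deposited in a fit over all 49293 cellular probe sets, in which 51.8% were higher and 3.22% lower. In the fit relative to the median probe set, where 24.9% were higher and 24.5% lower, the 4 differences on that relative scale were 2.44 (SE 0.06), 0.92 (SE 0.07), 0.71 (SE 0.07) and 0.30 (SE 0.09), with limma adjusted p of 4.35e-12, 2.60e-07, 2.11e-06 and 0.0184. The largest and the smallest rise of SNX5 thus lay 2.14 apart on the log2 scale. Without the dim 11761125_at the gap was 1.74.

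A ratio taken within each array shows this disagreement array by array. Probe set 11763188_a_at over 11737753_s_at, as a log2 ratio, was 1.00 and 0.91 with shBORIS and -0.63 and -0.50 with shLUC. Against 11742728_x_at it was 1.14 and 1.18 with shBORIS and -0.63 and -0.52 with shLUC. In both ratios the groups did not overlap. The change was 1.52 in the first and 1.74 in the second, which is the gap between the deposited differences of the probe sets; the sign of a ratio between different probe sets carries no meaning. As the mean of its 4 probe sets SNX5 differed by 0.99 after centring (limma adjusted p = 3.43e-07). With the probe set brightest on the shLUC arrays, an alternative chosen after the values were seen, it differed by 0.57 after centring (limma adjusted p = 5.55e-05). The direction did not depend on the probe set. The size did, from 1.55-fold to 6.84-fold as deposited. In Affymetrix names, a marks probes shared by transcripts of 1 gene, s probes shared by transcripts of several genes, and x probes that may bind similar sequences. The reference gene table names 2 pseudogenes of SNX5, so its probe sets may share signal with near-identical copies, which was not tested.

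**Figure D2:**
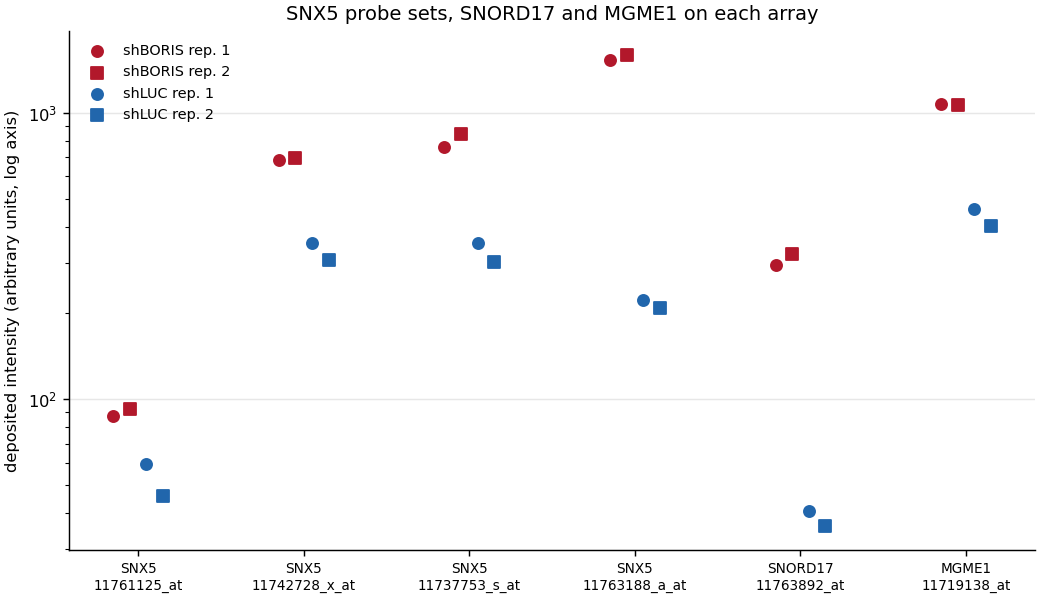
Deposited intensity on a log axis for the 4 SNX5 probe sets, the SNORD17 probe set and the MGME1 probe set, with 1 point per array (red shBORIS, blue shLUC; circles replicate 1, squares replicate 2). The shBORIS arrays are above the shLUC arrays for every probe set, and the gap is widest for SNX5 11763188_a_at (1529 and 1594 against 221 and 208) and SNORD17 (295 and 322 against 40.6 and 36.1).

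SNORD17, a box C/D small nucleolar RNA of the class that guides methylation of ribosomal RNA, read 295 and 322 with shBORIS and 40.6 and 36.1 with shLUC. Both shLUC arrays were under the filter's intensity of 61.4, and it passed the filter only through the shBORIS arrays, so it had to differ. Its difference, 2.58 as deposited and 2.10 after centring, is therefore a description with no test, and its size against so dim a group is uncertain. Its single probe set lies in a gene contained within SNX5, and signal from the host transcript and from the snoRNA cannot be told apart on it.

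MGME1, which encodes a nuclease of mitochondrial DNA maintenance, starts beside SNX5 and runs in the opposite direction. It read 1076 and 1061 with shBORIS and 463 and 402 with shLUC, a rise of 1.28 as deposited and 0.80 after centring (SE 0.06; limma adjusted p = 4.82e-06), and the groups did not overlap. As deposited, SNX5 differed by 2.77 on 11763188_a_at, 1.25 on 11737753_s_at, 1.04 on 11742728_x_at and 0.63 on 11761125_at. Whether MGME1 differs from these was not tested. The stretch between both starts is shown because the genes on either side of it both rose. In RefSeq's GRCh38.p14 table the SNX5 transcript starts at position 17968794 on the minus strand of chromosome 20 and that of MGME1 at 17969018 on the plus strand. The 223 bases between them, chr20:17968795-17969017, are printed 5′ to 3′ in the direction of SNX5 (minus strand). The printed line thus begins beside the start of MGME1 and ends beside the start of SNX5, and its label names the genes without giving their order. Capitals mark TGACGTCA, the element bound by CREB and ATF factors, and GCCATCTT, the reverse complement of AAGATGGC, a core of the YY1 motif; the motifs were chosen after the sequence was seen.
SNX5 to MGME1: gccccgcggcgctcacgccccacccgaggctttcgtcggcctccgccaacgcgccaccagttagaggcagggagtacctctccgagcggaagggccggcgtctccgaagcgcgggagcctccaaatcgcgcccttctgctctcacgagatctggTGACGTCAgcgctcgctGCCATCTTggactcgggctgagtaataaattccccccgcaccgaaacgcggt

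The stretch is 66.8% G and C and holds 28 CpG pairs. On both strands of 35116 RefSeq promoter windows of 300 bases, from 250 before to 50 after a gene's start, TGACGTCA was found in 1.85% and AAGATGGC in 2.89%. Of the 26 members with a window in the table, TGACGTCA was in that of SNX5 only and AAGATGGC in those of SNX1, SNX5 and SNX13. SNORD17, SNX16, SNX17, SNX19, SNX20, SNX30, SNX31, SNX32 and VPS26A had no window there. CACGTG, the E-box bound by MYCN and by the lysosomal regulator TFEB, was in 7.26% of all windows and, among members, in that of SNX8 alone. A match describes letters in a window and is not a bound site.

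Farther genes around SNX5 did not show rises of that size. Of the 5 genes on each side in the reference gene table, leaving out SNORD17, BANF2, MGME1 and OVOL2 were on the array, and the list was extended after the values were seen to the 5 nearest measured genes on each side. BANF2, BFSP1, OTOR and OVOL2 were too dim to test. Among the others, the actin-depolymerising factor DSTN rose by 0.37 after centring, RRBP1 fell by 0.32 and ZNF133 by 0.28, and KAT14 and DZANK1 read -0.02 and 0.09 (limma adjusted p = 0.811 and 0.358). RRBP1 and ZNF133 read 0.15 and 0.19 as deposited, where neither was called. The gene records of MGME1 and SNX5 overlap by 205 bases, so the records reach beyond the starts used here.

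**Figure D3:**
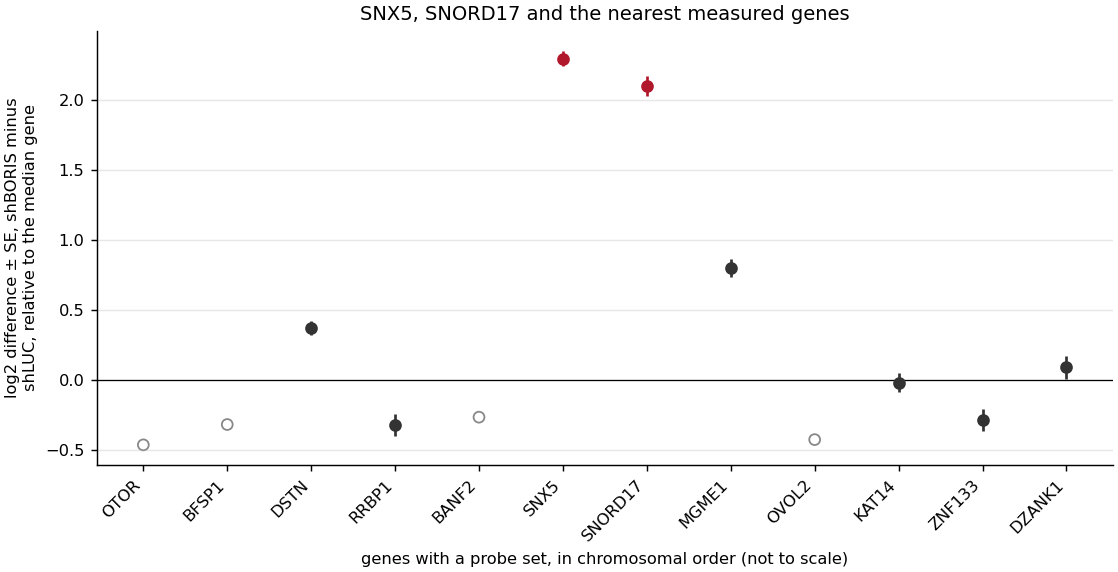
Log2 difference relative to the median gene for SNX5, SNORD17 (red) and the 5 nearest measured genes on each side, in chromosomal order and not to scale. Bars are standard errors from 2 arrays per group and open circles are untested dim genes; MGME1 at 0.80 is the highest of the 10 neighbours.

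The retromer rose in 3 of its 4 subunits after centring, where 30.2% of all genes did, and in all 4 as deposited, where 77.2% did. VPS26A, the more widely used of the alternative cargo-side arms, read 524 and 537 with shBORIS and 289 and 243 with shLUC. That is a rise of 0.96 as deposited and 0.48 after centring (SE 0.07; limma adjusted p = 1.48e-04). VPS26B, the alternative arm, read 290.3 and 298 against 220.0 and 206. It rose by 0.44 as deposited but read -0.04 after centring (SE 0.06; limma adjusted p = 0.612). Whether the arms differ from each other was not tested; their probe sets above the filter gave 0.40 to 0.63 for VPS26A and -0.14 to 0.11 for VPS26B relative to the median probe set, ranges that do not meet.

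VPS29, the subunit that binds the regulators TBC1D5 and ANKRD27, read 1169.6 and 1168.6 against 701 and 619. Its rise was 0.81 as deposited and 0.34 after centring (SE 0.06; limma adjusted p = 6.22e-04). VPS35, the scaffold that holds both other subunits and is mutated in an inherited form of Parkinson's disease, read 350 and 396 against 232 and 203. It rose by 0.74 as deposited and 0.26 after centring (SE 0.06; limma adjusted p = 0.00591). As deposited, shBORIS lay above shLUC without overlap for all 4 subunits, as it did for 83.8% of all genes tested. Without each array in turn the 3 relative calls held, and after quantile normalization the 3 genes read 0.41, 0.21 and 0.21.

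Among the partners and paralogs of SNX5, SNX6 and SNX1 rose on both scales. SNX6, its closest relative in function, read 861 and 997 with shBORIS and 469 and 455 with shLUC, a rise of 0.98 as deposited and 0.50 after centring (SE 0.06; limma adjusted p = 7.25e-05). Its 3 probe sets read 0.47 to 0.65 relative to the median probe set, less than SNX5 on 11763188_a_at and within the span of the other 3 SNX5 probe sets, 0.30 to 0.92. SNX1, a membrane-bending partner, read 487 and 539 against 316 and 283. It rose by 0.75 as deposited and 0.27 after centring (SE 0.06; limma adjusted p = 0.00284), but as the mean of its probe sets it read 0.06 (limma adjusted p = 0.347). SNX2, the other partner, read 566 and 703 against 509.7 and 494. It was higher by 0.32 as deposited (limma adjusted p = 0.00666) and read -0.16 after centring (limma adjusted p = 0.0936). Without shBORIS replicate 2 the adjusted p of SNX2 was 0.309 as deposited and 0.0091 after centring, where it then read as lower. SNX32, a paralog of SNX5 and SNX6, read 53.9 and 57.7 against 67.3 and 58.9, below the filter and untested.

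SNX4, which recycles the transferrin receptor and SNARE proteins of autophagy, was the lowest tested gene of the set after centring. It read 389 and 430 with shBORIS and 463 and 414 with shLUC, so that the groups overlapped as deposited (difference -0.09, SE 0.11; limma adjusted p = 0.432). Relative to the median gene it fell by 0.57 (SE 0.06; limma adjusted p = 2.44e-05), and its 2 probe sets lay 0.016 apart. SNX4 pairs with SNX7 or SNX30. SNX30 read 134 and 123 against 129 and 136, level as deposited (-0.04), and fell by 0.52 after centring (SE 0.09; limma adjusted p = 7.89e-04). SNX7 read 320 and 367 against 268 and 242, higher by 0.40 as deposited and -0.07 after centring (limma adjusted p = 0.34). For SNX4 and SNX30 the groups thus overlapped as deposited. Over all genes tested, shBORIS lay above shLUC without overlap for 83.8% and below for 6.6%.

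The SH3-domain sorting nexins SNX9, SNX18 and SNX33 act with dynamin and actin in endocytosis. SNX9 read 378 and 370.1 with shBORIS and 205 and 207 with shLUC, and rose by 0.81 as deposited and 0.34 after centring (SE 0.07; limma adjusted p = 0.00231); the mean over all its probe sets, dim ones included, was 0.18 (limma adjusted p = 0.0190). SNX18 read 135 and 139 against 141 and 129. Its deposited difference was 0.02 (limma adjusted p = 0.839), and after centring it fell by 0.45 (SE 0.07; limma adjusted p = 3.57e-04). SNX33 read 226 and 207 against 175 and 152, which is 0.37 as deposited, a rise, and -0.10 after centring (limma adjusted p = 0.302). These relatives therefore spread from the risen to the fallen side of the median gene. The reference table names 25 pseudogenes of SNX18, so its probe sets are uncertain. SNX8, which acts in traffic from endosomes to the Golgi, rose by 0.61 as deposited and read 0.14 after centring (limma adjusted p = 0.128). It was higher after centring without shLUC replicate 2 (adjusted p = 0.0413) and as the mean of its probe sets, at 0.18 (limma adjusted p = 0.0212). Over the 11 tested SNX-BAR genes, 4 rose and 3 fell after centring, beside 30.2% and 28.9% of all genes, and 8 were higher as deposited, beside 77.2%. These shares were near those of all genes.

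Among the 8 tested genes with little beyond a PX domain, 2 rose and 3 fell after centring, beside 30.2% and 28.9% of all genes, and 6 were higher as deposited, beside 77.2%, shares near those of all genes. SNX3, which brings the retromer to the Wnt carrier WLS, read 2066 and 2176 with shBORIS and 1319 and 1209.8 with shLUC. It rose by 0.74 as deposited and 0.26 after centring (SE 0.05; limma adjusted p = 9.54e-04). SNX12, a close relative of SNX3, read 678 and 833 against 472 and 448, a rise of 0.69 as deposited and 0.21 after centring (limma adjusted p = 0.0242). That relative call was lost when shBORIS replicate 2 (adjusted p = 0.249) or shLUC replicate 1 (adjusted p = 0.0544) was left out, and the mean of its probe sets read 0.03. SNX11 and SNX21 were higher by 0.61 and 0.69 as deposited and read 0.14 and 0.21 after centring, short of the threshold (limma adjusted p = 0.109 and 0.0894). As the mean of its probe sets SNX11 read 0.27 and was higher (limma adjusted p = 0.00100), and SNX21 read 0.15 and was higher (limma adjusted p = 0.0338). SNX21 was also higher after quantile normalization, at 0.33 (limma adjusted p = 0.0277). With each array left out in turn it read 0.11 to 0.32 after centring. The SNX21 arrays read 112 and 105 with shBORIS against 70.2 and 53.2 with shLUC, the latter around the filter's intensity of 61.4. Its passing of the filter was therefore not independent of the difference, a limit on each of its calls.

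SNX10, known from osteoclasts and the vacuolar ATPase, read 63.3 and 77.1 with shBORIS and 70.5 and 55.5 with shLUC, close to the filter and overlapping. Its deposited difference was 0.13 (limma adjusted p = 0.291), and it fell by 0.35 after centring (SE 0.10; limma adjusted p = 0.0109), a call lost without shLUC replicate 1 (adjusted p = 0.0888). SNX22 read 90.4 and 95.0 against 82.7 and 79.9, which is 0.16 as deposited (limma adjusted p = 0.172) and a fall of 0.32 after centring. SNX24 was higher by 0.31 as deposited and lower by -0.17 after centring (limma adjusted p = 0.0451), the only member called in opposite directions on both scales. Its relative call was lost when either shBORIS array or shLUC replicate 2 was left out (adjusted p of 0.0819, 0.18 and 0.188), and its deposited call without shBORIS replicate 2 (adjusted p = 0.0544). SNX16, which acts in receptor traffic, was higher by 0.34 as deposited and read -0.14 after centring. Leaving out shBORIS replicate 1 (adjusted p = 0.124) or shLUC replicate 2 (adjusted p = 0.0538) ended its deposited call, and without shBORIS replicate 1 it was lower after centring (adjusted p = 0.0234).

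Both tested FERM-domain sorting nexins, which return receptors to the cell surface, rose as deposited and after centring, where 77.2% and 30.2% of all genes did. SNX27, whose PDZ domain joins receptors to the retromer, read 520 and 527 with shBORIS and 317 and 263 with shLUC. It rose by 0.83 as deposited and 0.35 after centring (SE 0.07; limma adjusted p = 0.00146). SNX17, which recycles LRP1 and integrins with the retriever complex, read 991 and 1111 against 678 and 598. Its rise was 0.71 as deposited and 0.23 after centring (SE 0.06; limma adjusted p = 0.00545), and its 7 probe sets lay within 0.07 of each other. The mean over all SNX27 probe sets was 0.18 (limma adjusted p = 0.0455). After quantile normalization SNX27 read 0.27 and SNX17 0.11, the latter short of the threshold (limma adjusted p = 0.129).

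The 4 sorting nexins of the RGS or PXA type were all higher as deposited, as were 77.2% of all genes. After centring 1 of the 4 rose, where 30.2% of all genes did. SNX14, which acts at contacts of the endoplasmic reticulum with lipid droplets and is mutated in a cerebellar ataxia, read 427 and 403 with shBORIS and 264 and 248 with shLUC. It rose by 0.66 as deposited and 0.19 after centring (limma adjusted p = 0.0425). That relative call was lost without shBORIS replicate 1, shLUC replicate 1 or shLUC replicate 2 (adjusted p of 0.343, 0.092 and 0.0654), and the mean of its probe sets read -0.09. SNX13, SNX25 and SNX19 were higher by 0.59, 0.46 and 0.28 as deposited, and read 0.11, -0.02 and -0.20 after centring, without a call (limma adjusted p = 0.213, 0.861 and 0.0504). As means of their probe sets SNX13 was higher at 0.23 and SNX19 lower at -0.19 (limma adjusted p = 0.00614 and 0.0132), and SNX19 was also lower after centring without shLUC replicate 2 (adjusted p = 0.0234). Leaving out replicate 2 of shBORIS or of shLUC ended the deposited call of SNX19 (adjusted p = 0.0634 and 0.28). SNX15, which carries a MIT domain, was higher by 0.65 as deposited and read 0.17 after centring (limma adjusted p = 0.0786). It was higher after centring when shBORIS replicate 2 or shLUC replicate 1 was left out (adjusted p = 0.0392 and 0.0321) and as the mean of its probe sets, at 0.23 (limma adjusted p = 0.00713).

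Of the untested genes, SNX20, known from leukocytes, read 42.3 and 47.9 with shBORIS and 40.7 and 47.3 with shLUC. SNX31, known from the bladder, read 32.3 and 28.8 against 26.5 and 29.9. SNX29 read 55.8 and 76.2 against 46.3 and 42.8. The groups overlapped for SNX20 and SNX31 and did not for SNX29 or SNX32, and all 4 were too dim for a test.

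Probe sets of the same gene spread less for the other members than for SNX5, but not always with 1 sign. The set had 116 probe sets, 80 of them above the filter's intensity, and 22 members had more than 1 such probe set. Apart from SNX5, the span between the lowest and the highest of a member's differences ran from 0.016 to 0.55, with a median of 0.19 over 21 members, against 2.14 for SNX5. Without its dimmest probe set, whose shLUC arrays were under the filter's intensity, SNX5 spanned 1.74. SNX4 and SNX9 had the narrowest spans, and VPS29, SNX1 and SNX12 the widest after SNX5. As deposited, the probe sets of 21 of the 22 members had 1 sign, the exception being SNX30, and relative to the median probe set those of 15 did; the others were SNX1, SNX7, SNX12, SNX19, SNX24, SNX25 and VPS26B. The spans of VPS29, 0.07 to 0.63, and SNX1, -0.09 to 0.41, were as large as many of the members' differences. Probe sets of VPS29 include a pair with identical values on all 4 arrays, which stand for 1 measurement.

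**Figure D4:**
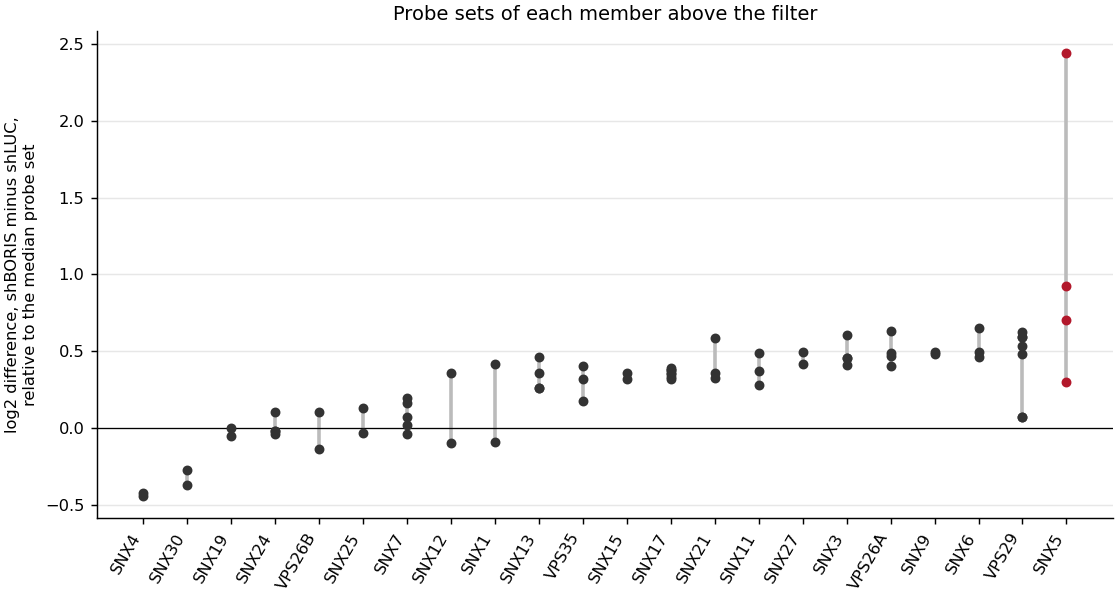
Log2 difference relative to the median probe set for every probe set above the filter, for the 22 members with more than 1, ordered by their median. Grey lines join the lowest and highest probe set of a gene. The line of SNX5 (red) spans 2.14 and those of the other 21 genes at most 0.55. The lowest SNX5 point is 11761125_at, whose shLUC arrays were under the filter's intensity.

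Some members lie close together in the genome. SNX1 and SNX22, whose records follow each other, rose by 0.27 and fell by 0.32 after centring. SNX2 and SNX24, which lie near each other, read -0.16 and -0.17. These pairs were chosen after their values were seen, and the difference within a pair was not tested.

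Complexes that work with sorting nexins were read from lists chosen with earlier results of these data known, and each count and value is on the centred scale unless said otherwise, beside 30.2% higher and 28.9% lower among all genes, and 77.2% and 4.6% as deposited. The WASH complex, which builds actin on endosomes under the retromer's direction, had 7 tested genes: 5 rose, and 0 fell at an adjusted or unadjusted limma p under 0.05. Their median was 0.36. All 7 were higher as deposited. The actin-capping subunit CAPZA1 rose by 0.51, WASHC2C, whose tail binds VPS35, by 0.45, WASHC3 by 0.40 and CAPZA2 by 0.36. WASHC4 and CAPZB read 0.04 and -0.08 (limma adjusted p = 0.678 and 0.351).

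The retriever and the CCC complex, a retromer-like coat that serves SNX17, split, with 5 of 15 higher and 6 lower (median 0.03), and 11 were higher as deposited. COMMD4 rose by 0.58 and COMMD9 by 0.39. VPS26C, the retriever's counterpart of VPS26A, fell by 0.66 and COMMD10 by 0.33; both were uncalled as deposited, at -0.19 and 0.15 (limma adjusted p = 0.1 and 0.178). VPS35L, the counterpart of VPS35, read 0.03. The subunits of that coat thus lay on both sides of the median gene.

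Of 9 tested regulators of the retromer 1 rose and 2 were lower (median -0.07), and as deposited 7 were higher and 1 lower. EHD1, which cuts recycling tubules, read 207 and 217 with shBORIS and 274 and 253 with shLUC, and fell by 0.77 after centring and by 0.30 on the deposited scale. TBC1D5, which switches off RAB7A on the retromer, fell by 0.52 after centring and read -0.04 as deposited (limma adjusted p = 0.752). DNAJC13 rose by 0.28. Its shLUC arrays read 65.9 and 52.7, and their mean of 59.3 was under the filter's intensity. Its passing of the filter was therefore not independent of the difference. EEA1, a tether of early endosomes, read 0.20 (limma adjusted p = 0.0577). Its shLUC arrays read 62.1 and 55.4, with a mean of 58.7 under the filter's intensity, so the same limit holds. The count higher as deposited includes DNAJC13 and EEA1.

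Cargo and receptors went both ways, 5 of 15 being higher and 7 lower (median -0.12); as deposited 8 were higher and 2 lower. The mannose 6-phosphate receptors M6PR and IGF2R, which carry lysosomal enzymes and are returned by SNX5 and the retromer, rose by 0.55 and 0.44 after centring; IGF2R was chosen after its value was seen. The sorting receptor SORL1 fell by 0.91 after centring and by 0.43 as deposited. The sorting receptor SORCS2 read 53.9 and 61.1 with shBORIS, both under the filter's intensity, and 81.0 and 75.8 with shLUC. It passed the filter only through the shLUC arrays, so it had to differ. Its differences, -0.84 after centring and -0.36 as deposited, are a description with no test, though the counts of lower genes include it. SORL1 read 191 and 176 with shBORIS and 275 and 233 with shLUC. The transferrin receptor TFRC, a cargo of SNX4, fell by 0.63 after centring and read -0.15 as deposited (limma adjusted p = 0.187).

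Among the enzymes that make and remove the phosphoinositides bound by PX domains, 3 of 11 rose and 5 were lower (median 0.03), and 8 were higher as deposited. The kinase PIKFYVE rose by 0.54, the phosphatases OCRL and MTMR2 by 0.53 and 0.33, and the PIKFYVE partner FIG4 fell by 0.30 but read 0.17 as deposited. Of 8 genes of the HOPS and CORVET tethers 2 rose and 3 fell (median -0.07), with VPS33A at 0.42, VPS41 at 0.29, VPS8 at -0.31 and VPS16 at -0.31. Of the 4 subunits of the GARP tether, which receives retromer vesicles at the Golgi, 2 fell and 0 rose, also at an unadjusted limma p under 0.05: VPS52 fell by 0.34 and VPS53 by 0.26, uncalled as deposited at 0.13 and 0.22, while VPS51 and VPS54 each read 0.03. Of 21 ESCRT genes, which send cargo to lysosomes, 8 rose and 4 fell (median 0.08). There VPS25 fell by 1.35, VPS37C by 0.91 and TSG101 by 0.49, and CHMP4A rose by 0.62. As deposited VPS25 and VPS37C were lower too, at -0.88 and -0.43, and TSG101 read -0.01 (limma adjusted p = 0.945).

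**Figure D5:**
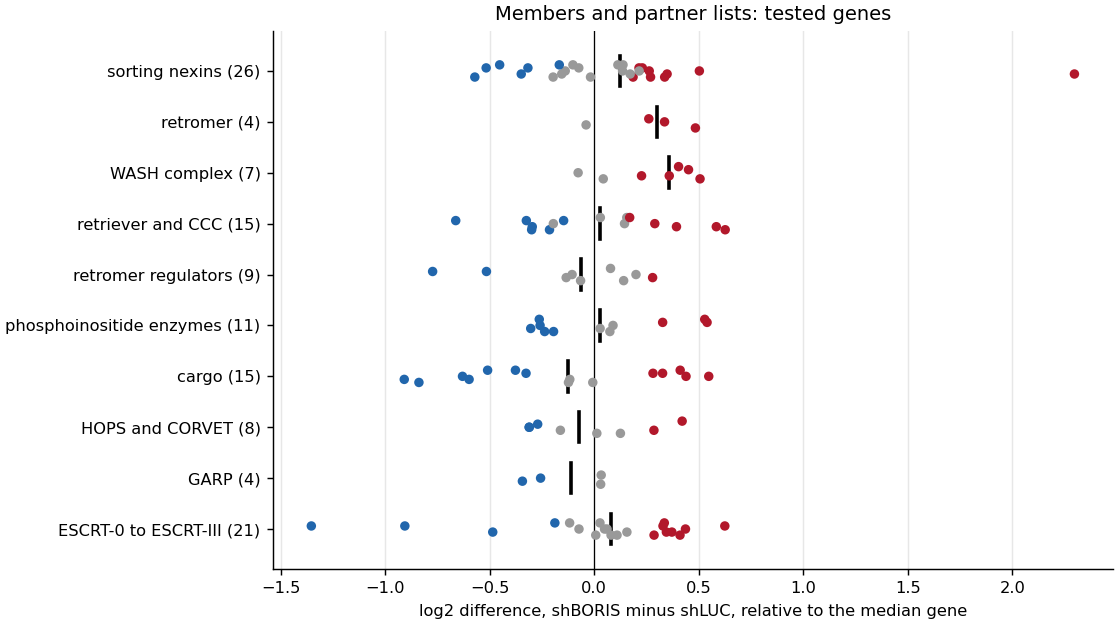
Log2 difference relative to the median gene for each tested gene of the sorting nexins, the retromer and 8 lists of partner genes, with the number tested in brackets. Red points were called higher, blue lower and grey neither, and black bars are medians, from -0.12 for cargo to 0.36 for the WASH complex; SNX5 is the point at 2.30.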

How the data were processed

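The authors deposited linear probe set intensities from 4 Affymetrix PrimeView arrays, 1 per sample. The submitters' processing notes name MAS5, R 3.1.3 and affy without the role of each, and how the arrays were scaled to each other is, in the sources used here, not given. ERCC spike-in probe sets had medians of 24.4 to 25.8 on the 4 arrays, and cellular probe sets 60.4 to 84.5. Control probe sets and those with several symbols (1333) or none (2682) were left out; symbols were updated through Entrez identifiers, matched for 45208 of 45278 probe sets.

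For each gene the probe set brightest on average, in log2 intensity, was kept, and genes under the 40th percentile of that mean (intensity 61.4) were not tested, which left 10946 of 18244. Values were log2(intensity + 16). limma 3.58.1 in R 4.3.3 fitted the hairpin as the only term with an intensity trend and 2 residual degrees of freedom, on values as deposited and after centring, in which the median of the tested genes was subtracted from each array. P-values were two-sided and adjusted over all genes tested. As deposited, the prior had infinite degrees of freedom, and very small p-values there should not be taken at face value; after centring it had 7.86. The number of arrays limits the precision. The duplicates are described as biological. After centring, p-values weigh the spread between a gene's duplicates together with the spread pooled over genes. As deposited, with the infinite prior, they rest on the pooled spread alone. The procedure was tested on simulated data with a common spread for all genes and no shift between arrays. In both respects they differ from the data here.

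The members and lists were chosen with earlier results of these data known. Values on every array were given for SNX5 and SNORD17, the retromer, SNX1, SNX2, SNX6 and SNX32, and the largest relative changes, and further members were added. Of each partner list up to 4 genes with the smallest relative p were named, with others added after their values were seen. Alternatives changed the pseudocount, filter, scaling, probe set rule, trend and arrays.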

Additional observations from a re-analysis of the deposited data

How the results depend on the processing

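SNX5 kept its direction and its call under each alternative of pseudocount, filter, scaling, probe set rule, trend, block and left-out array, between 1.04 and 2.86 as deposited and between 0.57 and 2.77 after centring. The lower bounds come from the probe set brightest on the shLUC arrays, chosen after the data were seen. The upper bound of 2.77 comes from ERCC centring in place of the median gene. The mean of the SNX5 probe sets gave 1.42 and 0.99. Without each array in turn the ranges were 2.73 to 2.81 and 2.28 to 2.31. In those runs 23 to 26 members were higher as deposited and 0 lower, and after centring 12 to 14 were higher and 5 to 6 lower.

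The scaling of the arrays moved the counts most. With quantile normalization in place of the deposited scale, 11 members were higher and 6 lower, not 26 and 0, and SNX2, SNX7, SNX16, SNX19, SNX24, SNX33 and VPS26B read -0.28, -0.13, -0.054, -0.17, -0.20, -0.11 and -0.072. With ERCC centring in place of the median gene, 26 were higher and 0 lower, not 13 and 6, and SNX10, SNX18, SNX22 and SNX24 read 0.12, 0.018, 0.15 and 0.30. A filter at the 60th percentile, which tests fewer genes, left 3 members lower. With probe sets averaged, 15 members were higher and 8 lower after centring: SNX8, SNX11, SNX13, SNX15 and SNX21 became higher and SNX16, SNX19 and SNX33 lower, while SNX1, SNX12, SNX14 (-0.092) and SNX24 lost their calls. With the replicate block, 23 members were higher as deposited and 14 higher and 8 lower after centring, where SNX2 and SNX19 became lower and SNX15 higher; SNX2, SNX19 and SNX24 lost their deposited calls. Same-numbered arrays deviated together only weakly (r = 0.098), so the numbers were not taken as pairs. Of 828 single-gene values under alternatives, 727 stayed on the same side of the threshold. Those of them that were called kept their direction, while uncalled ones could change sign. Dim genes, those near the filter, are limited by signal over background.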
